A study of Cicer arietinum with 8 samples.

Results

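The 156 probes whose codes start with LS formed one of 4 code classes on a 2-colour cDNA array used to follow drought, cold and salt in chickpea (Cicer arietinum, genotype ICC 3996). They were taken by that prefix alone, 156 of 756 probes, each printed as 6 spots. The other 600 probes carried codes starting with U (442), CA (117) or LC (41). On such an array a spotted cDNA gives signal where labelled plant cDNA of like sequence binds to it, and the 2 dyes set stressed beside unstressed tissue on 1 slide. The array design is known to draw on chickpea, grass pea and lentil, but which prefix stands for which species is not stated in the files, and they hold no descriptions of the probes. No LS code was found in the RefSeq gene table (0 matches), so the probes are given by code, with no gene name or function, and tissue markers could not be looked up.

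Drought, cold and salt all limit the water that plant cells can hold, and plants answer with hormone signals, chiefly abscisic acid, and with protective proteins and solutes. Salt also brings toxic sodium, which the roots meet first and the shoots later. Flowering and early pod growth are the stages at which chickpea yield is known to suffer most from drought and cold nights.

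There were 8 comparisons of treated with control plants, with 3 arrays each. Droughted plants stood in pots dried to 30% water content, against 80% for their controls, and leaves or flowers with early pods were taken. Cold-treated plants had nights at 5 °C and were sampled after night 7, against controls kept at 15 to 25 °C, for the same organs. These plants were 2 weeks past flowering. Salt-treated plants grew in nutrient solution, received 150 mM NaCl at day 18 and gave shoots or roots after 24 h and 48 h, against plants of the same age and times without added NaCl. The labels give 5 plants per group and RNA from pooled tissue. They call the 3 arrays biological replicates but do not say how the plants were divided among them. A value is a mean over plants, and fewer cells of a type and less RNA per cell cannot be told apart. Treated RNA carried Cy5 on arrays 1 and 2 of a comparison and Cy3 on array 3, the swapped array.

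Some arrays stood apart. The 3 arrays of salt roots at 24 h held the same scan, rescaled or shifted, and were averaged to 1 scan with no test, which left 44 channels to count. For salt roots at 48 h the control side of array 1 was dim, with 602 unflagged spots against 1431 and 1610 in the other control root channels at that time, and so was the control channel of array 1 of drought flowers, with 1034. The arrays of different dye orientation also differed for the LS probes, as described below. Precision is limited by having 3 arrays or fewer behind each value.

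The limit for counting a probe as above background was 3 or more of its 6 spots brighter than their surroundings by more than 2 standard deviations of the local background. By that limit between 10 and 110 LS probes were above background per channel, with a median of 49.5. As shares of the class these were 6.41% and 70.5% with a median of 31.8%, whereas the other 600 probes gave 24.3% to 80.5% with a median of 63.9%. The LS share was the lower one in 44 of 44 channels. Negative control spots named NEGCON were above the limit at no more than 2 of 18 spots in a channel and at none in 38 channels. Spots named Blank passed it at up to 6 of 24 in a channel. The highest Blank counts, 5 and 6, were in the treated and control channels of array 2 of cold leaves.

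The class was spread from never seen to always seen. Of the 156 LS probes, 28 (17.9%) were above background in no channel, against 14.9% of all 756 probes. Another 50 were seen in 1 to 5 channels, 28 in 6 to 21, 39 in 22 to 39 and 10 in 40 to 43, and the median was 5.5 of 44 channels. In the U class the median was 35 channels and in the CA class 41, while 39 of 41 LC probes were never seen. Thus 50 LS probes (32.1%) were above background in at least 50% of the channels, where all probes gave 59.5%. LS0740 was the one LS probe seen in all 44 channels (0.641% of the class, against 17.4% of U and 23.9% of CA). The counts shift with the limit. With 1 standard deviation 9 LS probes were never seen, with 3 standard deviations 64, and with only unflagged spots counted 73.

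By organ, 91 LS probes were above background in at least 1 of 12 leaf channels, 119 in flowers with early pods (12 channels), 81 in shoots (12) and 74 in roots (8). Counts by organ, here and under the looser rule below, were made for the LS probes alone. No share over all probes stands beside them, so they are not read as traits of the class. There were 32 probes seen in at least 50% of the channels of every organ, treated and control channels counted together. For LS0035, LS0064, LS0701 and LS0991 among them, all root channels with signal were treated ones. No LS probe was seen in at least 50% of the channels of 1 organ and in none of the other organs. There were 24 probes seen only in flower channels, none of them in more than 4 channels, and 2 seen only in a single leaf channel, while shoots and roots had 0 of their own. The flower count leaned on 1 channel, the treated channel of drought flowers array 3. It held 110 LS probes, 13 of them seen nowhere else, and without it 11 probes were seen only in flowers and 100 in any flower channel.

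When the rule was loosened to at least 50% of the channels of 1 organ and 0 channels of another, 19 probes met it, and they fell into 2 kinds. The 11 of the first kind had no root channel. LS0493 was seen in 12 leaf, 10 flower, 12 shoot and 0 root channels, and LS0551 in 11, 11, 8 and 0. LS0412, LS0418 and LS0625 likewise filled at least 50% of the channels of leaves, flowers and shoots, and LS0034, LS0297, LS0341, LS0451, LS0565 and LS0754 did so in 1 or 2 organs. The other 8 were seen in at least 4 of 8 root channels and were missing from at least 1 organ above ground: LS0024, LS0036, LS0081, LS0159, LS0162, LS0185, LS0731 and LS0783. In 7 of these 8 every root channel with signal was a treated one. The exception was LS0036, seen in 4 treated and 2 control root channels.

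Control plants alone allow organs to be compared without stress. In control leaves 17, 79, 40, 66, 70 and 36 LS probes were above background, against 10, 68, 49, 94, 69 and 50 in control flowers. The ranges overlapped, with means of 51.3 ± 24 and 56.7 ± 28.1 (SD, n = 6 each), and the difference of -5.33 was within the spread (exact permutation test, 2-sided, p = 0.725, adjusted over 4 tests 0.755). In control roots the counts were 15, 16, 35 and 11, against 60, 56, 16, 68, 71 and 16 in control shoots. The mean was 19.2 ± 10.7 in roots (SD, n = 4) and 47.8 ± 25.2 in shoots (SD, n = 6), and the difference of -28.6 did not pass (exact permutation test, p = 0.0762, adjusted 0.305). As a share of all probes above background, LS probes made up 7.42% ± 3.17 in roots and 10.7% ± 5.13 in shoots (exact permutation test, adjusted p = 0.552). The permutations did not hold dye or experiment fixed, so the spread behind these tests includes both. In control shoots the counts of 16 and 16 were in Cy5 and the others in Cy3. The NORMCON control spots were above the limit at 0 of 18 in every root channel, treated channels included, and at 11 to 18 of 18 in every other channel.

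LS counts in treated and control channels of the same array went with the dye. Outside the roots, treated tissue in Cy3 showed more LS probes than control tissue on 6 of 6 arrays, by 1 probe in cold flowers. Treated tissue in Cy5 showed fewer on 10 of 12 arrays. For the other probes, treated minus control counts had both signs in each dye orientation. With treated RNA in Cy3 they were 28 and 43 under drought, 15 and -32 under cold, and 15 and 11 in salt shoots. With treated RNA in Cy5 they were 44, 12, 138 and 1 under drought and -25, -10, -38 and 13 under cold. In salt shoots they were -22, -12, 22 and 15. In droughted leaves the treated channels of arrays 1 to 3 had 27, 71 and 62 LS probes and the control channels 17, 79 and 40. In droughted flowers the treated channels had 40, 61 and 110 and the control channels 10, 68 and 49. Array 3, with treated RNA in Cy3, had the widest gap in both. In cold leaves the treated channels had 40, 50 and 49 and the control channels 66, 70 and 36. In cold flowers treated channels had 45, 49 and 51 LS probes on arrays 1 to 3 and control channels 94, 69 and 50. Under cold, control channels thus held more on arrays 1 and 2 and treated channels on array 3. In salt shoots at 24 h the treated channels had 39, 40 and 31 and the control channels 60, 56 and 16. In salt shoots at 48 h the treated channels had 55, 55 and 25 and the control channels 68, 71 and 16. The fitted dye effect (Cy5 over Cy3, log2) was below 0 for 45 of 60 LS probes (75%) with a median of -0.10, and for 192 of 418 other probes (45.9%) with a median of 0.03. A stress effect on LS counts was therefore not read from these organs.

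Roots at 48 h of salt differed in this respect. The treated channels held 56, 58 and 53 LS probes above background, the control channels 16, 35 and 11. Treated roots had the higher count on 3 of 3 arrays, in both dye orientations, and the counts did not overlap. The other 600 probes moved the same way, with 387, 346 and 353 in treated channels and 146, 300 and 232 in control channels.

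In salt-treated roots and not in control roots, on all 3 arrays at 48 h, 17 LS probes were above background, 10.9% of the class. The same held for 31 of the other 600 probes (5.17%) and for 6.35% of all probes. The reverse pattern, control roots only, was met by 0 LS and 0 other probes. Among probes that passed in treated roots on each array, the 17 were 37.8% of 45 LS probes, whereas 31 of 305 other probes (10.2%) were in no control channel. A further 13 LS probes in that group were above background in 1 control channel, 12 in 2 and 3 in all 3. LS probes were less often above background in general, with a median share of 31.8% over channels against 63.9%. Control root channels had 602, 1610 and 1431 unflagged spots on arrays 1 to 3, against 2605, 2289 and 1989 in treated ones. The part of both in the 37.8% and 10.2% was not tested. The list depends on the limit, with 5 LS probes at 1 standard deviation, 9 at 3 standard deviations and 16 when 5 of 6 spots had to pass. Without array 2 it held 31 probes and without array 3 it held 24, while without the dim array 1 it held 17.

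LS0185 had the largest bound. Its spots averaged 8.36, 9.51 and 13.0 times the local background in treated roots on arrays 1 to 3, against 1.08, 1.07 and 1.07 times in control roots. All 6 spots passed the limit in each treated channel and none in any control channel. Since the control signal was not well above background, a fold can only be bounded, by setting the control channel at the dimmest probe above background there or at the probe's own signal where that was higher. The bounds given here and below average all spots of a probe, flagged ones included. LS0185 was at least 17.5-fold higher in treated roots, and at least 13.6-fold without array 1.

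LS0035 stood at 14.4, 14.2 and 7.56 times background in treated roots, against 1.31, 1.49 and 0.953 in control roots, and was at least 9.25-fold higher. LS0616 stood at 14, 8.63 and 6.75 times in treated roots, against 1.46, 1.31 and 1.05 in control roots, and was at least 7.39-fold higher. LS0109 stood at 10.4, 9.26 and 6.56 times in treated roots, against 1.46, 1.28 and 0.984 in control roots, and was at least 7.16-fold higher. These 3 were dimmest over background in the treated channel of array 3, where the treated RNA carried Cy3, whereas LS0185 was brightest there.

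LS0024 reached 2.87, 2.75 and 5.24 times background in treated roots, against 1.39, 1.09 and 0.968 in control roots, a bound of at least 4.38-fold. LS0162 reached 3.69, 3.27 and 5.08 times in treated roots, against 1.48, 1.16 and 0.937 in control roots, a bound of at least 4.27-fold. Like LS0185, both were brightest over background on array 3. The remaining 11 were LS0041, LS0064, LS0081, LS0159, LS0210, LS0448, LS0701, LS0731, LS0783, LS0882 and LS0991. Their bounds ran from 1.73-fold for LS0159 to 3.61-fold for LS0064. Over the 17 the median bound was 3.5-fold, and 15 reached 2-fold. Without array 1 the median was 1.92-fold, the lowest was 1.09-fold for LS0159, and 7 probes reached 2-fold. Over all 17, treated signals ran from 1.58 to 14.4 times background with a median of 3.01, and control signals from 0.876 to 1.53 with a median of 1.14. The 2 sets of signals did not overlap, which the choice of the 17 largely fixes. None of the 17 had a ratio to test in roots at 48 h.

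The scan of salt roots at 24 h gave a like picture. There 49 LS probes were above background in the treated channel and 15 in the control channel, so that 34 were seen in the treated channel only and 0 in the control channel only. The other probes gave 65 and 10, and 13.1% of all probes were seen in the treated channel only. Of the 17 LS probes of 48 h, 13 were among the 34, which is 76.5% of the list at 48 h and 38.2% of the list at 24 h. The same overlap was not counted for the other probes, so it is not read as particular to the LS probes. The other 4, LS0041, LS0210, LS0448 and LS0882, were above background in neither channel. LS0185 stood at 14.6 times background in treated roots and 1.14 times in control roots, and LS0035 at 6.09 and 1.04 times. The dye orientation of this scan is not known, because its copies carry conflicting dye labels, so a dye effect was not taken off.

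Outside the roots these 17 probes differed among themselves. LS0064 was above background in 31 of 36 channels of leaves, flowers and shoots, and LS0448 and LS0701 in 30 each, while LS0024, LS0162 and LS0783 were each seen in 1. In all, 9 of the 17 were seen in at least 18 of those channels and 7 in fewer than 10. In salt shoots at 48 h, 7 of them could be tested, and their fitted log2 ratios of treated over control ran from -0.46 to 0.98 with 0 calls. LS0064 had 0.24 and -0.16 on arrays 1 and 2, and its fitted 0.98 (limma, adjusted p = 0.21) lay above both because a dye effect of -0.94 was taken off. LS0035 had 0.76 from 1 spot and -0.01, and likewise a higher fitted value of 0.82 (limma, adjusted p = 0.326) after a dye effect of -0.45. Neither pair of arrays showed a rise of that size. LS0448 had -0.43 and -0.25 and a fitted -0.46 (limma, adjusted p = 0.0874).

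Ratios of treated over control could be tested where spots were unflagged in both channels on at least 2 arrays. Of the 156 LS probes, 69 were tested in at least 1 of 7 conditions, 10 in all 7 and 87 in none, so what follows describes the brighter LS probes. The log2 ratio was fitted with limma across 21 arrays with a common dye term, with Benjamini-Hochberg adjustment of p over all probes of a comparison and a threshold of 0.05. The p values rest on the spread between arrays in all 7 conditions, drawn by limma toward a spread common to the probes. They do not measure the spread of 1 condition's own arrays alone. In all there were 10 LS calls for 9 probes, 9 lower and 1 higher, and 7 of the 10 had no value on the dye-swapped array 3. These were 3.47% of 288 tests of LS probes, where all probes had 267 calls in 2794 tests (9.56%), 134 higher and 133 lower. Counts at an unadjusted limma p under 0.05 are given below for LS probes alone. With no share over all probes beside them, they are not read as traits of the class.

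In droughted leaves none of the 50 LS probes tested passed (limma, smallest adjusted p = 0.206), as was true of 0% of all 441 probes, and 4 LS probes had an unadjusted p under 0.05. The LS median log2 ratio was -0.02, beside -0.01 over all probes tested. The smallest p belonged to LS0701, with log2 ratios of 0.22 and 0.93 on arrays 2 and 3 and a fitted value of 0.57 ± 0.20 (SE). LS0412 had -0.84 and -0.94 on the same arrays and a fitted -0.89 ± 0.29 (limma, adjusted p = 0.206 for both).

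In droughted flowers with early pods 0 of 47 LS probes passed (limma, smallest adjusted p = 0.229), against 0% of all 434, and 5 had an unadjusted p under 0.05, all lower. The LS median was -0.01 and that of all probes 0.04. LS0697 had -0.67 and -0.65 on arrays 1 and 2 and a fitted value of -1.13 ± 0.33. The fitted value lay below both arrays because its dye effect of 0.47 (limma, adjusted p = 0.0301) was taken off. LS0060 had -2.95, -0.74 and -0.62 on arrays 1 to 3 and a fitted -1.42 ± 0.45 (limma, adjusted p = 0.229), and array 1, with the dim control channel, was the lowest. On that array only 9 LS probes had a ratio, with a median of -1.79, beside 0.27 for 190 other probes. Without array 2 there were 2 LS calls among 5 tested, and without array 3 there were 4 among 6, all of them lower. Without array 1 there were 0 among 46 (limma). Probes tested without array 2 or array 3 had to have a ratio on array 1. No share over all probes was counted for these settings, so the calls are not read as a trait of the class. Leaf and flower responses to drought differed at none of 32 LS probes (limma, lowest adjusted p = 0.572, with 0 LS probes at an unadjusted p under 0.05, and 0% of all probes called).

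Cold leaves had 1 LS call among 43 tested. LS0381 fell, with log2 ratios of -1.33 and -0.98 on arrays 1 and 2 and no value on array 3. Its fitted value was -1.05 ± 0.22 (SE), 2.07-fold lower (limma, adjusted p = 0.0435). Over all 429 probes 0.932% were called lower, 2.8% higher and 3.73% in either direction. Without array 3, which gave no value for LS0381 but entered the shared fit, the adjusted p was 0.0654, and without array 1 or array 2 it could not be tested. The call held under 4 of 15 alternatives. Its spots on array 3 were flagged, and with flagged spots kept it stood at -0.54 there. Another 9 LS probes had an unadjusted p under 0.05, and all 10 were below 0.

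In cold leaves 35 of 43 fitted LS ratios were below 0, with a median of -0.39, beside 0.01 over all probes tested. Ratios below 0 were not counted for the other probes, here or in cold flowers. Probes on the same arrays are not independent, so these counts are descriptions only. The LS medians were -0.37, -0.34 and -0.17 on arrays 1 to 3, where the other probes had 0.00, 0.01 and -0.01. All 3 arrays had the same sign, and the swapped array had the smallest size. Cold flowers looked alike on arrays 1 and 2, with LS medians of -0.42 and -0.34, and opposite on array 3, with 0.25. The fitted median there was -0.19, beside -0.02 over all probes, and 33 of 47 were below 0. These shifts moved with the dye orientation, and the part of the dye in them was not tested apart from the common dye term. LS spots lay in 12 of the 24 subgrids of the slide, and with loess by subgrid the LS median of cold leaves was -0.31. With flagged spots kept it was -0.07.

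In cold flowers 0 of 47 LS probes passed (limma, smallest adjusted p = 0.0941), as did 0% of all 433, and 5 had an unadjusted p under 0.05. LS0697 had -1.08 and -0.60 on arrays 1 and 2 and a fitted value of -1.30 ± 0.33 (limma, adjusted p = 0.0941). LS0994 had -0.56, -0.60 and -0.24 and a fitted -0.42 ± 0.11 (limma, adjusted p = 0.175), below 0 on 3 of 3 arrays in both dye orientations. Cold leaves and cold flowers differed at none of 35 LS probes (limma, lowest adjusted p = 0.934, with 2 LS probes at an unadjusted p under 0.05, and 0% of all probes called).

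Drought and cold responses of leaves were compared directly. Of 38 LS probes, 2 had a higher ratio to control in drought than in cold and 0 a lower one, where 1.49% of all 403 probes were higher and 2.23% lower (3.72% in either direction). LS0551, one of the probes seen in no root channel, had 0.10 and 1.62 in droughted leaves on arrays 2 and 3, against -2.45, -1.07 and -0.47 in cold leaves. The groups did not overlap, which the choice of the probe by this contrast largely fixes. The difference was 2.00 ± 0.46 (SE, limma, adjusted p = 0.0426). LS0951 had 0.71, 0.23 and 0.65 in droughted leaves, against -1.98, -0.90 and -0.19 in cold leaves, a difference of 1.56 ± 0.35 (limma, adjusted p = 0.0425). Neither passed in 1 stress alone, with 0.86 (adjusted p = 0.251) under drought and -1.14 (adjusted p = 0.0633) under cold for LS0551 in limma. Both calls were narrow. LS0951 lost its call without any single array other than cold array 2 (adjusted p 0.05 to 0.0906), and LS0551 without cold array 1 or 3 (adjusted p = 0.05 and 0.109), while without drought array 2 or 3 it could not be tested. In flowers the same contrast gave 0 of 45 (limma, lowest adjusted p = 0.376, with 3 LS probes at an unadjusted p under 0.05, 0% of all probes).

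Salt shoots at 24 h gave 0 LS calls among 39 tested (limma, smallest adjusted p = 0.129), where 5.08% of all 394 probes were called, 2.54% higher and 2.54% lower, and 6 LS probes had an unadjusted p under 0.05. The LS median was -0.02, beside 0.03 over all. LS0551 had 0.81 and 0.15 on arrays 1 and 2 and a fitted value of 1.04 ± 0.39 after a dye effect of -0.55 was taken off (limma, adjusted p = 0.129). LS0448, one of the 17 root probes, had -0.39 and -0.37 on the same arrays and a fitted -0.51 ± 0.18 (limma, adjusted p = 0.131).

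By 48 h of salt 6 of 49 LS probes in shoots had fallen and 0 had risen, where 17.9% of all 419 probes had fallen and 13.4% had risen. The LS median was -0.08, beside 0.03 over all. LS0381, the cold leaf call, had the lowest fitted value among LS probes, with -1.67 and -1.12 on arrays 1 and 2 and a fitted value of -1.29 ± 0.22, 2.45-fold lower (limma, adjusted p = 0.00358). LS0691 had -1.37 and -1.91 and a fitted -1.06 ± 0.31 (limma, adjusted p = 0.0219), with a dye effect of -0.58 (adjusted p = 0.0116) that made the fitted fall smaller than both arrays. LS0381 was seen in 36 of 44 channels and LS0691 in 39, so both were also among the more widely seen LS probes.

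LS0418, LS0493 and LS0625 are 3 of the probes seen in no root channel. LS0493 had -0.94 and -0.81 on arrays 1 and 2 and a fitted value of -0.84 ± 0.27 (limma, adjusted p = 0.0318). LS0625 had -1.09 and -1.17 and LS0418 -0.98 and -1.20, with fitted values of -0.89 and -0.73 (limma, adjusted p = 0.0371 and 0.0314). All 3 fell in shoots on both arrays with a value, and for LS0625 and LS0418 the fitted fall was smaller than on both arrays, after dye effects of -0.25 and -0.36. LS0994 had -0.78 and -0.54 and the smallest fitted fall, -0.52 (limma, adjusted p = 0.0318).

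All 6 falls rested on arrays 1 and 2, in which treated RNA carried Cy5, and none had an unflagged spot on the swapped array. With flagged spots kept, array 3 read -2.38 for LS0493, -0.86 for LS0691 and -0.74 for LS0381, but 0.41 for LS0994, 0.20 for LS0418 and 0.11 for LS0625. Of these 6, only LS0493 was above background in both channels of array 3. Leaving out array 3 from the shared fit kept 2 of the 6, LS0381 (adjusted p = 0.0156) and LS0691 (adjusted p = 0.0399), and without array 1 or array 2 there were 0 LS calls among the 13 probes left to test. Shoots at 48 h and at 24 h differed at none of 38 LS probes (limma, lowest adjusted p = 0.197, with 3 LS probes at an unadjusted p under 0.05, and 0.261% of all probes called). LS0412 was nearest to a call with -1.41 ± 0.41 (limma, adjusted p = 0.197).

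In salt roots at 48 h 13 LS probes could be tested, 8.33% of the class, since control signals were dim. Of these 1 rose and 2 fell, where 23% of all 244 probes rose and 18% fell. LS0125 rose, with log2 ratios of 2.55 and 2.57 on arrays 2 and 3, of opposite dye orientation, and a fitted value of 2.56 ± 0.41, 5.91-fold higher (limma, adjusted p = 0.000276). On array 1 it stood at 30.6 times background in the treated channel, against 1.27 times in the control channel, where no spot passed the limit. In the scan at 24 h its ratio was 2.75, the highest of 20 LS probes. In other organs LS0125 had fitted ratios from -0.83 in cold leaves to 0.53 in salt shoots at 48 h, none of them called.

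LS0975 had -1.11, -2.55 and -0.61 on arrays 1 to 3 in salt roots and fell 2.45-fold (fitted -1.29 ± 0.26, limma, adjusted p = 0.00181). It was lower on 3 of 3 arrays and kept its call without any one of them (adjusted p 0.00182 to 0.0117). LS0740, the probe seen in every channel, had -0.09, -1.46 and -0.68 and fell 1.64-fold (fitted -0.71 ± 0.22, limma, adjusted p = 0.0205). It was lower on 3 of 3 arrays, though array 1 was close to 0, and lost its call without array 2 (adjusted p = 0.204) or array 3 (0.0956). In the averaged scan at 24 h LS0740 and LS0975 were the lowest LS probes too, at -1.08 and -0.98.

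That scan gave ratios for 20 LS probes, with a median of 0.26, beside 0.06 over all 306 probes, and with no replicate there was no test. At least 2-fold higher were 3 LS probes, where 14.7% of all probes were, and at least 2-fold lower 1, where 8.17% were. After LS0125 the highest were LS0142 at 1.65 and LS0169 at 1.30. Neither had a tested ratio at 48 h, where LS0142 stood at 39, 63.2 and 8.71 times background in treated roots, against 1.28, 7.05 and 1.19 times in control roots. LS0169 stood at 16.5, 20.3 and 4.7 times in treated roots, against 1.09, 2.85 and 1.11 times in control roots. Both were above background in the control channel of array 2 alone, which kept them out of the 17. The third lowest was LS0619 at -0.45 from a single spot. Among 12 LS probes with ratios at both times 7 had the same sign. The sign at 24 h rests on the labelling of the channels.

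Root and shoot responses after 48 h of salt were set against each other. They differed at 4 of 12 LS probes, 2 higher and 2 lower in roots, where 25.8% of all 236 probes differed. LS0125 had 2.55 and 2.57 in roots, against 0.64, 0.37 and 0.40 in shoots, a difference of 2.03 ± 0.53 (SE, limma, adjusted p = 0.0105). LS0975 had -1.11, -2.55 and -0.61 in roots, against 0.12, 0.09 and 0.71 in shoots, a difference of -1.73 ± 0.36 (limma, adjusted p = 0.00329). In neither case did roots and shoots overlap. The 4 probes were named for passing this contrast, which largely fixes that.

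LS0675 had -0.58 and -0.46 in roots on arrays 2 and 3, against 0.14, 0.12 and 0.79 in shoots, a difference of -0.88 ± 0.29 (limma, adjusted p = 0.0359). LS0691 had 0.16 and -0.23 in roots, against -1.37 and -1.91 in shoots, on arrays 1 and 2 in both, a difference of 1.60 ± 0.40 (limma, adjusted p = 0.0105). Roots and shoots did not overlap here either, but the root value on array 1 came from 1 spot, and the fitted root value of 0.54 lay above both arrays once the dye effect of -0.58 was taken off. With no dye term the adjusted p was 0.0954 (limma). Without shoot array 3 the calls of LS0125 (adjusted p = 0.0532) and LS0675 (0.181) were lost.

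The authors' deposited table gives a mean log2 ratio per condition, and its columns correlated with the treated over control ratios of the arrays across probes (Pearson's r 0.34 to 0.79, as a description, since probes are not independent). In the authors' deposited table the 10 LS calls all had the sign of the fitted values, with 2.95 for LS0125 in salt roots at 48 h, -2.58 for LS0381 in salt shoots at 48 h and -0.07 for LS0740 in salt roots at 48 h. That table was made from the same arrays and is not independent of them. In the authors' deposited table the LS medians lay further below 0 than the fitted ones in several conditions, at -1.03 in salt shoots at 48 h (all probes -0.26), -0.59 in salt shoots at 24 h (all -0.25), -0.73 in cold leaves (all -0.14) and -0.70 in cold flowers (all -0.13). They were -0.13 in droughted leaves (all -0.09), -0.09 in droughted flowers (all -0.01), -0.39 in salt roots at 48 h (all -0.33) and -0.05 in salt roots at 24 h (all -0.34).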

How the data were processed

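The deposited intensity values are the mean pixel brightness of each spot and of its local background, 1 file per channel (48 files, 24 arrays), made with ImaGene 5.5, which also flagged empty and poor spots, per the file headers. The deposited table of log2 values holds the authors' means over 3 arrays, made in GeneSight from background-subtracted, LOWESS-normalised ratios per the series design. Its direction, found by setting it against the arrays, is treated over control. Its centring and the shift in its logarithm are not given in the sources used here, and its column medians over all probes ran from -0.34 to -0.01.

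Background was corrected with normexp (offset 50), arrays were normalised one by one by loess over the whole slide (controls and flagged spots at weight 0), any spot with a flag in 1 or both channels was left out, and spots of a probe were averaged. Ratios were turned to treated over control. A model with a coefficient per condition and a dye term was fitted over all probes with limma 3.58.1 in R 4.3.3. The planned fit was of all separate arrays, which left 21. Whether a probe was above background was decided on uncorrected means, and bounds used loess and Aquantile values per channel. Both used all spots of a probe, flagged ones included, so flagged spots were left out of the ratios only. Named probes were those called, those seen in treated and not control roots on all 3 arrays, those seen in all channels or by organ as described, the 2 with the smallest p where none was called, and the 3 highest and lowest in the 24 h scan. The looser organ rule is a second reading of that rule. The members and lists were chosen with earlier results of these data known. Days of image quantification in the headers separate the salt arrays from the others, so a day effect and a difference between salt and the other stresses cannot be told apart. The fit was run on simulated ratios with known changes, independent noise between arrays and dye effects drawn at random. Those dye effects were not matched to the ones fitted for LS probes. The simulation therefore does not show how calls without the swapped array behave. Background, normalisation, flag, model, replicate and limit settings were varied.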

Additional observations from a re-analysis of the deposited data

Results flagged for a closer look

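For 6 LS probes the response differed between conditions by a test of the difference itself. The difference of drought minus cold leaves was 2.00 for LS0551 and 1.56 for LS0951 on the log2 scale. The difference of salt roots minus salt shoots at 48 h was 2.03 for LS0125, 1.60 for LS0691, -0.88 for LS0675 and -1.73 for LS0975. Among the alternatives in which each could be tested, the call held in 12 of 18 for LS0551, 9 of 20 for LS0951, 16 of 18 for LS0125, 12 of 15 for LS0691, 12 of 18 for LS0675 and 20 of 20 for LS0975. LS0675 and LS0691 had small changes in roots that were not called there (limma, adjusted p = 0.0778 and 0.186). Counts of LS probes in control channels spread widely within an organ, from 10 to 94 in flowers, 11 to 35 in roots and 16 to 71 in shoots. The 10 was the dim control channel of drought flowers array 1.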

How the results depend on the processing

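Counts of LS calls depended on the treatment of flagged spots, the arrays and the model. Rules that keep flagged spots also let more LS probes be tested than in the reported fit. Outside the t-test, no share over all probes stands beside the counts below, so they are not read as traits of the class. In cold leaves the 1 call became 0 with plain background subtraction, loess by subgrid, at least 3 unflagged spots, probes above background in both channels, the condition fitted alone, a block for image quantification day, the array number as replicate block, or the methods' t-test, and 3 with scaling between arrays. Leaving out an array gave 0 to 1. In salt shoots at 48 h the 6 became 19 with flagged spots kept, 16 where a spot was dropped only if both channels were flagged, 10 with no dye term, 11 with array quality weights, 3 with the replicate block, 1 with scaling and 0 by the methods' t-test, and 0 to 2 without an array. In salt roots at 48 h the 3 became 56 with flagged spots kept, 25 under the both-channel rule, 0 by the t-test and 1 to 3 without an array. Cold flowers gave 1 call with quality weights and 1 with the day block, salt shoots at 24 h gave 9 with quality weights, and drought flowers gave 0 to 4 without an array, 2 without array 2 and 4 without array 3. The methods' t-test gave 3, 2, 5, 4, 3, 11 and 1 LS probes at an unadjusted p under 0.05. The order is drought leaves, drought flowers, cold leaves, cold flowers, salt shoots at 24 h and 48 h and salt roots at 48 h. After Benjamini-Hochberg adjustment the t-test gave 0 LS probes in each. Over all probes tested the unadjusted counts were 32, 12, 43, 40, 44, 80 and 37, in the same order. For drought minus cold leaves the 2 calls became 1 with flagged spots kept, the both-channel rule, at least 3 spots or quality weights, and 0 with no dye term, the pair fitted alone or the replicate block, and 0 to 2 without an array. For salt roots minus shoots at 48 h the 4 became 2 with scaling, 44 with flagged spots kept, 13 under the both-channel rule and 1 to 4 without an array. The cause of these shifts was not tested. The 28 LS probes never above background became 9 at 1 SD, 64 at 3 SDs and 73 with unflagged spots only. The 17 seen in treated and not in control roots became 5 at 1 SD and 9 at 3 SDs, and 17 to 31 without an array. Of the counts and differences under an alternative, 214 stayed within 1.5 times or on the same side of the threshold and 55 did not. Of the values of single probes, LS medians and flower counts, 242 stayed, 72 lost their call and 3 moved. No called probe changed sign. The LS median of drought leaves, -0.02 as reported, ran from -0.02 to 0.04, and that of drought flowers, -0.01 as reported, from -0.02 to 0.08, so their sign is not settled.

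Array numbers were not taken to pair conditions. Deviations on arrays 1 and 2 correlated at 0.55 and 0.55 between drought leaves and flowers and at 0.09 and 0.19 between cold leaves and flowers. The replicate block left the salt root count at 3 and the root minus shoot count at 4. It lowered the counts of salt shoots at 48 h, cold leaves and drought minus cold leaves, as given above. Leaving out the treated channel of drought flowers array 3, an alternative chosen after seeing the data, raised the LS probes never seen to 41. Dim control signals limit root ratios to 13 LS probes.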

Other observations

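In droughted flowers 5 LS probes had fitted log2 ratios below -1, none of them called. LS0093 was the lowest, with -3.53, -0.81 and -0.45 on arrays 1 to 3 and a fitted -1.52. LS0148 had -3.11, -0.64 and -0.44, and LS0059 had -1.79, -0.74 and -0.74. With LS0060 these 4 were below 0 on 3 of 3 arrays, in both dye orientations, and were lowest on array 1, whose control channel was dim. These 3 were named after their values were seen.

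Spots of an LS probe on the same array had a median SD of 0.15 in log2 ratio, against 0.12 for the other probes. The median SE of a fitted ratio in salt roots at 48 h was 0.31 for LS probes and 0.21 for the others.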
